A study of Mus musculus with 23 samples.

Results

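The comparison set ventricles of 11 aldosterone-treated mice against those of 12 untreated mice, with both genotypes of the study pooled and genotype kept in the model as an additive factor. All 23 samples of the series entered, and all 21892 named genes were tested. The treated mice were 5 non-transgenic controls (Ctrl) and 6 MR-Cardio mice, and the untreated mice were 5 controls and 7 MR-Cardio mice. MR-Cardio mice overexpress the mineralocorticoid receptor in cardiomyocytes. All mice were male, and the labels record a duration of 7 days in every group. The labels do not state the promoter that drives the transgene, the age of the mice, the dose and route of the hormone or any vehicle. Each mouse had an animal number of its own, so the spread between arrays is a spread between animals. Each array gave, per probe, the log2 ratio of ventricle RNA over a common reference of mixed RNA from spleen, kidney, heart, brain and liver. A log2 difference of 1 is a doubling, and a ratio below 0 means less transcript than in the reference pool.

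Aldosterone is the adrenal steroid that binds the mineralocorticoid receptor, a nuclear receptor which then acts on gene transcription; its best-known work is sodium retention in the kidney. In the heart the receptor is found in cardiomyocytes, fibroblasts, endothelium and macrophages, and its activation is linked to hypertrophy, inflammation and fibrosis. Adult cardiomyocytes seldom divide, so genes of DNA replication and mitosis are read in a whole ventricle mainly from whichever cells are cycling. These genes are switched on in waves. E2F factors with their partners act at the entry into S phase. The MuvB complex, with B-MYB and FOXM1, acts at the G2 and M phase genes, whose promoters often hold elements named CHR and CCAAT box.

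After aldosterone, 229 of 21892 genes passed an adjusted p of 0.05 (limma with Benjamini-Hochberg adjustment), which is 1.05% of all genes. Of these, 188 (0.859% of all genes) rose and 41 (0.187%) fell. The rises were larger, with a median log2 difference of 0.69 among the genes that rose and −0.37 among those that fell, and 45 genes rose by at least 1 log2 unit against 2 that fell by as much. Genes of mitosis led the rises: 27 of the 39 measured genes of a mitosis and spindle list rose and 0 fell. Over the lists of mitosis, replication, G1 control and DNA repair together, 42 of 115 genes rose. Over all genes the median difference was −0.01, and 2846 genes had an unadjusted p under 0.05.

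Promoters of some of the genes that rose are printed first, because their letters were not used in the comparison. RefSeq promoter windows, 250 bases before to 50 bases after the annotated start on GRCm38.p6, were found for 148 of the genes that rose, 32 of those that fell and 17195 genes in all. The CHR was searched as TTTGAA or TTCGAA, the CCAAT box as CCAAT, the E2F site as TTTCGCGC or TTTGGCGC and a core of the corticosteroid receptor site as AGAACA, each on both strands. The stretches below run 5′ to 3′ on the gene's strand, from 120 bases before the start to 30 after it, with matches in capitals; a match on the opposite strand appears as TTCAAA or ATTGG. The first 4 belong to mitotic genes that rose and hold a CHR and at least 1 CCAAT box. Prc1 bundles microtubules of the spindle midzone, Bub1 is a kinase of the spindle checkpoint, Ccnb2 is a B-type cyclin and Kif11 is the kinesin that pushes spindle poles apart.
Prc1 (chr7:80294331-80294480, plus strand): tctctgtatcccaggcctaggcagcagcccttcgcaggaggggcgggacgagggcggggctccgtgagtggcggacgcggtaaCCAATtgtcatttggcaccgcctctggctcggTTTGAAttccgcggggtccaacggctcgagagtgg
Bub1 (chr2:127831830-127831979, minus strand): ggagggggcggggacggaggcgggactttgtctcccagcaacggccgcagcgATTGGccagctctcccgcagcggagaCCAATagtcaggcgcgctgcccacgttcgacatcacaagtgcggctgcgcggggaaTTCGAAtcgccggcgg
Ccnb2 (chr9:70421525-70421674, minus strand): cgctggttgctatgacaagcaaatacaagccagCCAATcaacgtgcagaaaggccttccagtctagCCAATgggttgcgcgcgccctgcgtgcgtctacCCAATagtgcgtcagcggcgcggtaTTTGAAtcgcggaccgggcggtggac
Kif11 (chr19:37376262-37376411, plus strand): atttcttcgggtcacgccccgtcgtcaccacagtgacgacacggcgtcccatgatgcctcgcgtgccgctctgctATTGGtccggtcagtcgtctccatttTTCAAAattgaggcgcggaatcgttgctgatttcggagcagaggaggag
The next 3 belong to genes of S phase and chromatin that rose and hold an E2F match. Dtl is a substrate receptor of the ubiquitin ligase that removes Cdt1, Ezh2 is the methyltransferase of the Polycomb repressive complex, and H2ac22 is a replication-dependent histone H2A gene.
Dtl (chr1:191575515-191575664, minus strand): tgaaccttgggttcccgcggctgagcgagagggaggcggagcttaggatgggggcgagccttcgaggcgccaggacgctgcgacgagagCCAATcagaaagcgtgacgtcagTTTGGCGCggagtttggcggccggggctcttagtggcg
Ezh2 (chr6:47595001-47595150, minus strand): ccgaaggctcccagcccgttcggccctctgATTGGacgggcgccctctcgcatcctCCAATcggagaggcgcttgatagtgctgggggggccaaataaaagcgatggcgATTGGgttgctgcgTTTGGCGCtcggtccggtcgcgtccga
H2ac22 (chr13:21787219-21787368, minus strand): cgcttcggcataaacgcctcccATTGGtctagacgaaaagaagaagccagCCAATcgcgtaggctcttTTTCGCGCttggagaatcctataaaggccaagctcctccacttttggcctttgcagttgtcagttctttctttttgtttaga
Melk, a kinase of proliferating cells that was among the strongest rises, has no match to the searched CHR, CCAAT or E2F letters in its window. Other forms of these sites were not searched, in Melk or in any other gene.
Melk (chr4:44300797-44300946, plus strand): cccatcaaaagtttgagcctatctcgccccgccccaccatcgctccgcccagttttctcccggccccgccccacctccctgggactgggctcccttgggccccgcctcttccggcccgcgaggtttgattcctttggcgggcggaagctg

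A CHR match was present in 37.2% of the 164 promoter windows of genes that rose, in 15.0% of the 40 windows of genes that fell and in 16.8% of the 20924 windows of all measured genes. For the CCAAT box the shares were 59.1%, 45.0% and 37.9%, in the same order of sets, and for the E2F site 7.93%, 0.0% and 1.1%. A CHR together with a CCAAT box was found in 28.7% of the windows of genes that rose, 5.0% of those of genes that fell and 6.8% of all windows. AGAACA was in 11.6% of the windows of genes that rose, 17.5% of those of genes that fell and 16.2% of all windows. The whole mitosis list, its members that did not pass included, had a CHR match in 82.9% of 35 windows. In the replication list, an E2F match was in 34.5% of 29 windows and a CHR match in 17.2%. These shares describe letters in fixed windows and not bound sites, and a gene's windows can overlap. The CHR was described from mitotic genes such as these, so the share in the mitosis list is not independent of how that list was chosen.

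Neil3, a DNA glycosylase that opens the repair of oxidised bases and cross-links in proliferating cells, had the largest rise. Its log2 ratios were −0.17, −0.55, −0.42, −0.17 and 0.19 in the 5 treated controls, against −2.60, −1.54, −2.24, −1.78 and −1.70 in the 5 untreated controls. In MR-Cardio mice they ran from −1.52 to 0.90 with a median of 0.35 under aldosterone (n = 6), against −2.76 to −1.37 with a median of −2.05 untreated (n = 7). The groups did not overlap in controls, and in MR-Cardio 5 of the 6 treated mice lay above every untreated mouse. Over both genotypes Neil3 rose by 1.94 log2 units (SE 0.24, 3.83-fold, adjusted p = 0.000811).

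Melk had log2 ratios of −1.05, −1.39, −1.52, −1.87 and −1.33 in treated controls, against −3.63, −3.05, −2.65, −2.38 and −3.18 in untreated controls. In MR-Cardio mice the treated values ran from −2.02 to 0.19 with a median of −0.53, against −3.34 to −2.15 with a median of −2.26 untreated. Every treated mouse lay above every untreated mouse of its genotype. The pooled rise of Melk was 1.69 log2 units (SE 0.23, 3.22-fold, adjusted p = 0.000825).

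**Figure D1:**
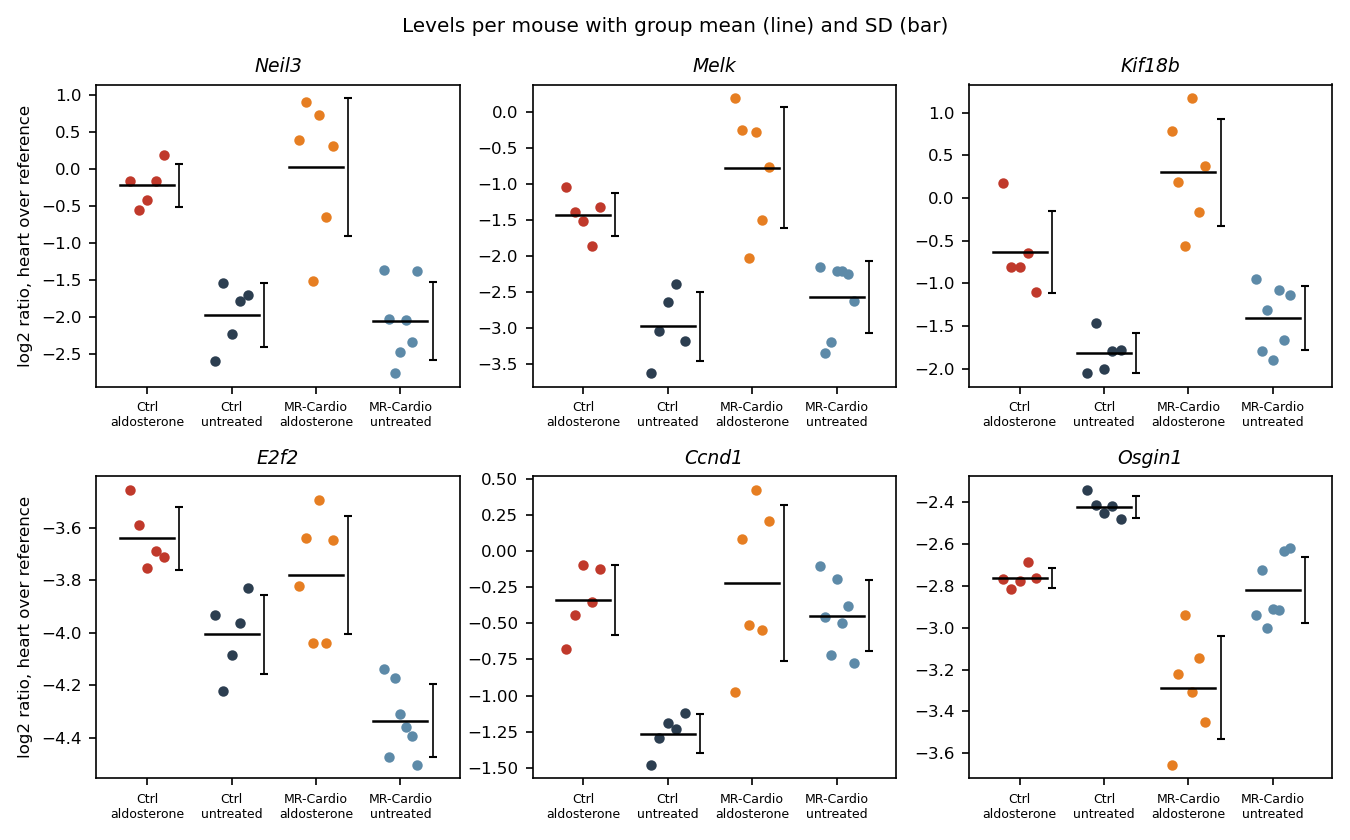
Log2 ratio of heart over reference (vertical axis) for 6 genes in each mouse, by group, with the group mean as a line and the SD as a bar. Melk, Kif18b and E2f2 lie above every untreated mouse of the same genotype in all treated mice, Neil3 does so in all but 1, Ccnd1 separates in controls with overlap in MR-Cardio, and Osgin1 lies lower in treated mice.

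Among the checkpoint and kinetochore genes, Bub1b, which holds back anaphase until chromosomes are attached, was measured at −1.16, −1.12, −1.36, −1.29 and −1.38 in treated controls, against −2.90, −2.35, −2.54, −2.57 and −2.48 in untreated controls. The control groups lay wide apart, with little spread under aldosterone. In MR-Cardio mice Bub1b ran from −1.91 to 0.23 with a median of −0.19 under aldosterone, against −3.04 to −1.67 with a median of −2.37 untreated. Its pooled rise was 1.55 (SE 0.21, adjusted p = 0.000825). The kinase Bub1 rose by 1.82 (SE 0.25, adjusted p = 0.00102), and Kntc1, which recruits checkpoint proteins to the kinetochore, rose by 1.67 (SE 0.23, adjusted p = 0.000825). The kinetochore genes Ska1 and Cenph rose by 1.71 and 1.37, and Sgo1, which protects centromeric cohesion, rose by 1.39. Ndc80, Nuf2 and Spc25, subunits of the complex that binds microtubules at the kinetochore, rose by 0.99, 0.47 and 0.80, and Ndc80 lost its call in 8 of 23 fits with a single mouse removed.

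Some of the spindle motors passed. Kif18b, a kinesin that shortens astral microtubules, was measured at 0.17, −0.80, −0.81, −0.64 and −1.10 in treated controls, against −2.05, −1.46, −2.00, −1.80 and −1.78 in untreated controls. In MR-Cardio mice its range was −0.56 to 1.17 with a median of 0.28 under aldosterone, against −1.90 to −0.95 with a median of −1.31 untreated. No treated mouse overlapped the untreated mice of its genotype, and the pooled rise was 1.48 (SE 0.19, adjusted p = 0.000811). Kif11 rose by 1.30, Kif4 by 1.03 and Prc1 by 1.32, while Kif20a (0.76, adjusted p = 0.065), Kif2c (0.66, adjusted p = 0.177) and Kif15 (0.88, adjusted p = 0.221) did not pass. The spindle proteins Ckap2, Ckap2l, Nusap1 and Tpx2 rose by 1.45, 1.39, 1.17 and 0.69, and the calls of Ckap2l and Tpx2 were lost in 19 and 20 of 23 fits with a single mouse removed. Pimreg, a mitotic regulator, rose by 1.77, the mitotic kinases Pbk and Nek2 by 1.90 and 1.41, and the chromosome-untangling enzyme Top2a by 1.45.

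Several cyclins and kinases of mitotic entry and exit passed, and others of the mitosis list did not. Ccna2, the cyclin of S phase and G2, was measured at −1.34, −1.56, −1.72, −1.70 and −1.73 in treated controls, against −3.12, −2.95, −2.80, −2.48 and −2.26 in untreated controls, and these groups did not overlap. In MR-Cardio mice Ccna2 ran from −2.25 to −0.29 treated against −2.92 to −2.06 untreated, with 5 of 6 treated mice above every untreated mouse. Its pooled rise was 1.31 (SE 0.19, adjusted p = 0.00105). Cdk1, the kinase of mitotic entry, rose by 0.79, its cyclin partner Ccnb2 by 1.00, the polo kinase Plk1 by 0.82, and Cdc20 and Ube2c, which act with the anaphase-promoting complex, by 0.93 and 0.80. The proliferation antigen Mki67 ran from −2.95 to −2.62 in treated controls, against −4.07 to −3.18 in untreated controls, and rose by 1.18 overall (SE 0.19, adjusted p = 0.00286). Of the chromosomal passenger complex, Birc5, Cdca8 and Incenp rose by 1.14, 0.82 and 0.48, while Aurkb, its kinase, had a difference of −0.19 (adjusted p = 0.798). Other members that did not pass were Aurka (0.52, adjusted p = 0.115), Foxm1 (0.57, adjusted p = 0.253), Hmmr (0.04) and Cenpf (−0.14). The median of the 39 mitosis genes was 0.80, with 37 of them higher in treated mice, against a median of −0.01 over all genes.

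The replication list moved less. Of 29 measured genes, 9 rose, 0 fell and 27 were higher, with a median difference of 0.23. Those that rose were the helicase and loading genes Mcm3, Mcm6, Mcm10, Cdc6 and Cdt1, the sliding clamp Pcna, the ligase Lig1, and Rrm2 and Tk1, which supply deoxynucleotides. With a single mouse removed, Mcm3, Pcna and Lig1 lost their calls in 9, 12 and 11 of 23 fits, and Cdt1 and Rrm2 in 19 each. Mcm6 rose by 0.97 (SE 0.19, adjusted p = 0.0120) and Cdc6 by 0.85 (SE 0.19, adjusted p = 0.0272). Tk1 was measured at −0.37, −0.36, −0.46, −0.74 and −0.47 in treated controls, against −0.89, −1.09, −1.05, −1.09 and −0.90 in untreated controls, and rose by 0.58 over both genotypes (SE 0.09, adjusted p = 0.00260). Treated and untreated controls were separate for Tk1. In MR-Cardio mice it ran from −1.06 to −0.05 treated against −1.32 to −0.80 untreated, with 5 of 6 treated mice above every untreated mouse. Tyms and Dut, which act in thymidylate synthesis, had differences of −0.14 and −0.01 and did not pass.

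Replication-dependent histone genes, which are transcribed in S phase, were grouped by name after values had been seen: 11 of 45 rose, 0 fell and the median was 0.16. The largest were H1f5 at 1.07 and H2ac22 at 0.80. Copies of these histones are near-identical, so their probes may not tell them apart. Among other families grouped by name in the same way, 7 of 41 kinesins rose (median 0.03) and 6 of 21 centromere proteins rose (median 0.29), and 0 fell in either.

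Of the 24 genes of G1 control, 3 rose and 1 fell, with a median of 0.10. All 3 that rose are E2F factors. E2f2, an activating E2F, was measured at −3.46, −3.59, −3.76, −3.69 and −3.71 in treated controls, against −3.93, −4.22, −4.08, −3.96 and −3.83 in untreated controls, without overlap. In MR-Cardio mice E2f2 ran from −4.04 to −3.49 with a median of −3.73 under aldosterone, against −4.50 to −4.14 with a median of −4.36 untreated, again without overlap. The pooled rise of E2f2 was 0.47 (SE 0.07, adjusted p = 0.00189). E2f1, another activating member, rose by 0.59, while the activating member E2f3 did not pass. E2f7, a repressive member, rose by 0.27, a call that 19 of 23 fits with a single mouse removed did not keep.

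Ccnd1, the cyclin that opens G1 and is induced by growth factors, did not pass over both genotypes, with a difference of 0.53 (SE 0.15, adjusted p = 0.103). Its ratios in treated controls were −0.68, −0.44, −0.10, −0.35 and −0.12, against −1.48, −1.29, −1.19, −1.23 and −1.12 in untreated controls. In MR-Cardio mice they ran from −0.97 to 0.42 with a median of −0.21 under aldosterone, against −0.78 to −0.10 with a median of −0.45 untreated. The control groups were separate and the MR-Cardio groups overlapped on both sides, and the test of the difference between genotypes did not pass (unadjusted p = 0.0182, adjusted p = 0.876). The related D-type cyclin Ccnd2 fell by 0.36 (SE 0.08, adjusted p = 0.0209). The inhibitor Cdkn1a (0.07), the kinase Cdk4 (0.03) and the E-type cyclins Ccne1 (0.00) and Ccne2 (0.14) did not pass.

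In the DNA repair list, Neil3, the resection exonuclease Exo1 (1.28, adjusted p = 0.00297) and the endonuclease subunit Eme1 (0.85, adjusted p = 0.00724) rose, 3 of 23 genes, and 0 fell. Neil1 and Neil2, the other two glycosylases of the family of Neil3, had differences of −0.12 and −0.25, and neither passed. The homologous recombination gene Rad54l was close to the threshold (0.77, adjusted p = 0.0540). The median of the list was 0.07.

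**Figure D2:**
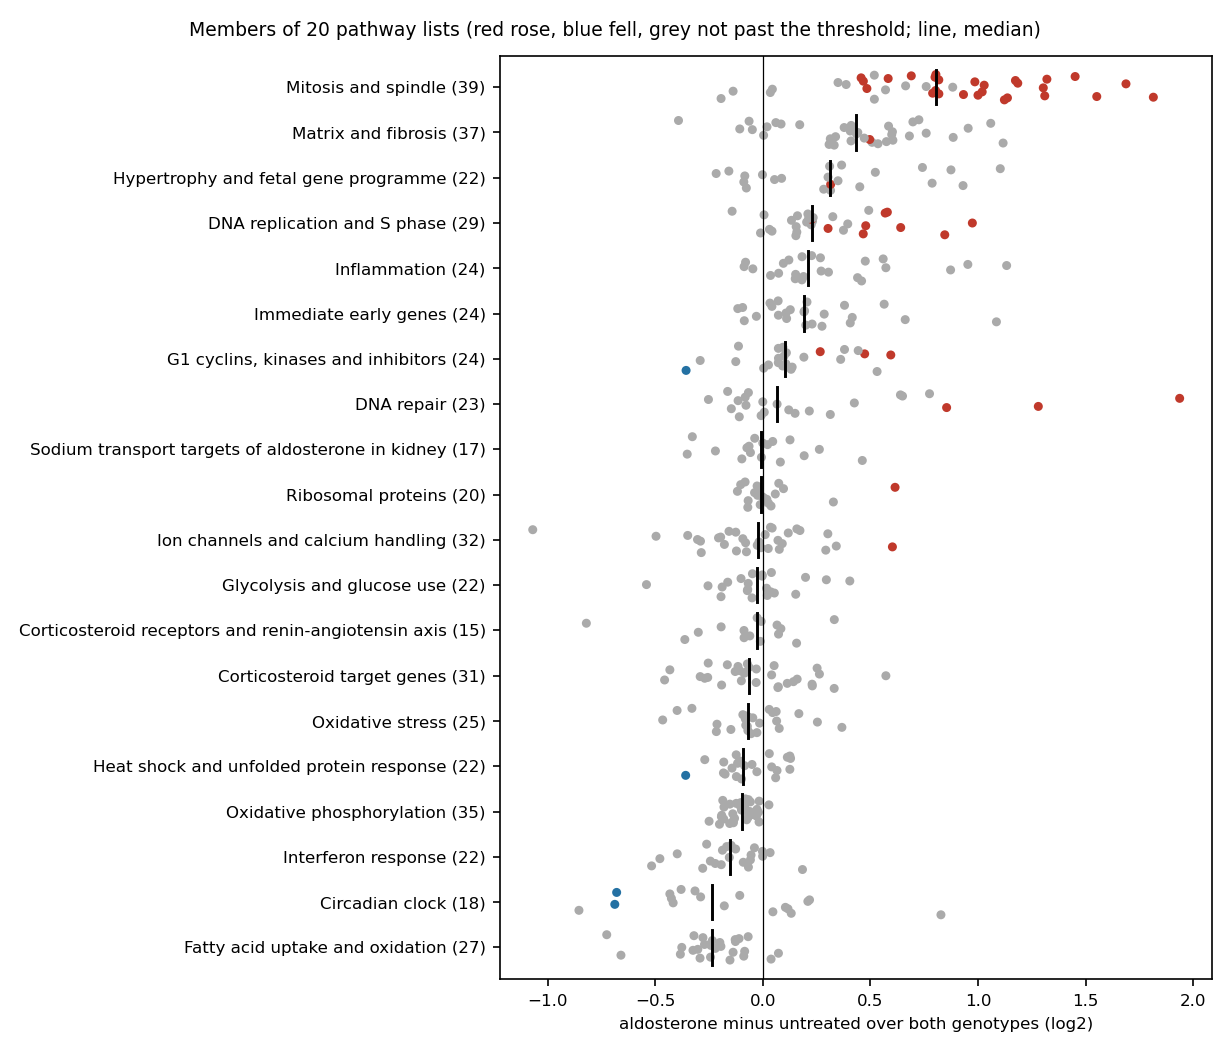
Log2 difference of treated minus untreated mice over both genotypes (horizontal axis) for every measured member of 20 pathway lists (vertical axis, number of members in brackets), with the list median as a line. The mitosis list has its median at 0.80 and 27 members that rose, and no list has a median below −0.25.

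The pooled estimate was set beside the 2 genotypes. Of the 15 largest rises, the differences ran from 0.94 to 1.75 in controls and from 1.60 to 2.12 in MR-Cardio, and the smallest unadjusted p of a difference between genotypes among them was 0.0875. Across all genes 0 (0.0%) passed for the interaction of aldosterone and genotype in limma, with 1197 genes at an unadjusted p under 0.05 and a smallest adjusted p of 0.684. A miss of this threshold does not show that the 2 genotypes responded alike. Within the same model, 314 genes (1.43%) passed for aldosterone in MR-Cardio alone, of which 208 rose and 106 fell, and 0 (0.0%) passed in controls alone, where 1036 genes had an unadjusted p under 0.05 and the smallest adjusted p was 0.513. When the 10 controls were fitted by themselves, 8 genes passed, and when the 13 MR-Cardio mice were fitted by themselves, 0 passed. The number of calls in 1 genotype thus differed between these ways of estimating the spread. Among the smallest interaction p-values, Pfkfb2, a regulator of glycolysis, had a difference of −0.69 in MR-Cardio and 0.30 in controls (unadjusted p = 6.41e-05, adjusted p = 0.684).

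The 2 genotypes share no mice, so the ranking in one can be read in the other. When each genotype was fitted by itself, 49 of the 50 genes with the smallest p-values in controls moved the same way in MR-Cardio (98%), with a median difference there of 1.03 in the direction seen in controls. Of the 50 genes ranked first in MR-Cardio, 45 moved the same way in controls (90%), with a median of 0.37. After quantile normalization the same readings gave 48 of 50 (96%, median 1.01) in MR-Cardio and 39 of 50 (78%, median 0.15) in controls. Over all 21892 genes the share was 56.2%. Genes are not independent of one another, so these shares carry no test. Bub1b, Dscc1, Cdca5 and Kif11 led the ranking in controls; Dscc1 loads the sliding clamp and Cdca5 holds sister chromatids together. The mitosis list had a median difference of 0.50 in controls and 1.04 in MR-Cardio.

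**Figure D3:**
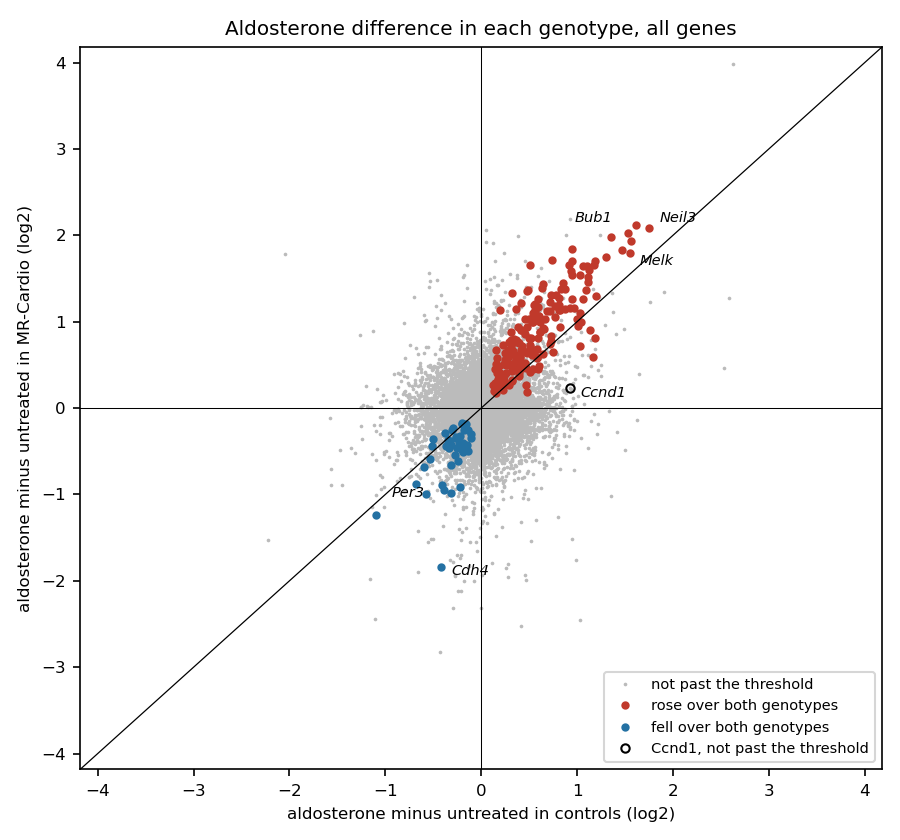
Log2 difference of treated minus untreated mice in MR-Cardio (vertical axis) and in controls (horizontal axis) for all 21892 genes, with genes that rose over both genotypes in red, those that fell in blue and the line of equality. The genes that rose lie at the upper right, with the 15 largest at 0.94 to 1.75 in controls and 1.60 to 2.12 in MR-Cardio.

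In 11 genes (0.0502% of all genes) every treated mouse lay above every untreated mouse of its genotype, in both genotypes. They were Cdca7, Cenph, E2f1, E2f2, H2ac22, Kif18b, Kntc1, Lmnb1, Melk, Micall2 and Pbk. Of the 15 largest rises, 13 separated fully in controls and 5 in MR-Cardio. These 15 were picked by the size of their rise in the same mice, so separation is partly built in. The share of all genes that separate in a single genotype is not given here. The overlap in MR-Cardio came with a wider spread under aldosterone. The mean log2 ratio of the 39 mitosis genes was −0.98, −1.15, −1.04, −1.20 and −1.19 in treated controls, against −1.81, −1.81, −1.65, −1.62 and −1.41 in untreated controls. In treated MR-Cardio mice 1 to 6 it was 0.03, −0.10, −1.44, −0.19, −1.05 and −0.59, against −1.85 to −1.36 with a median of −1.53 in untreated MR-Cardio mice. Mice 1, 2 and 4 were high, mouse 3 lay inside the untreated range, and mouse 5 lay level with treated controls.

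**Figure D4:**
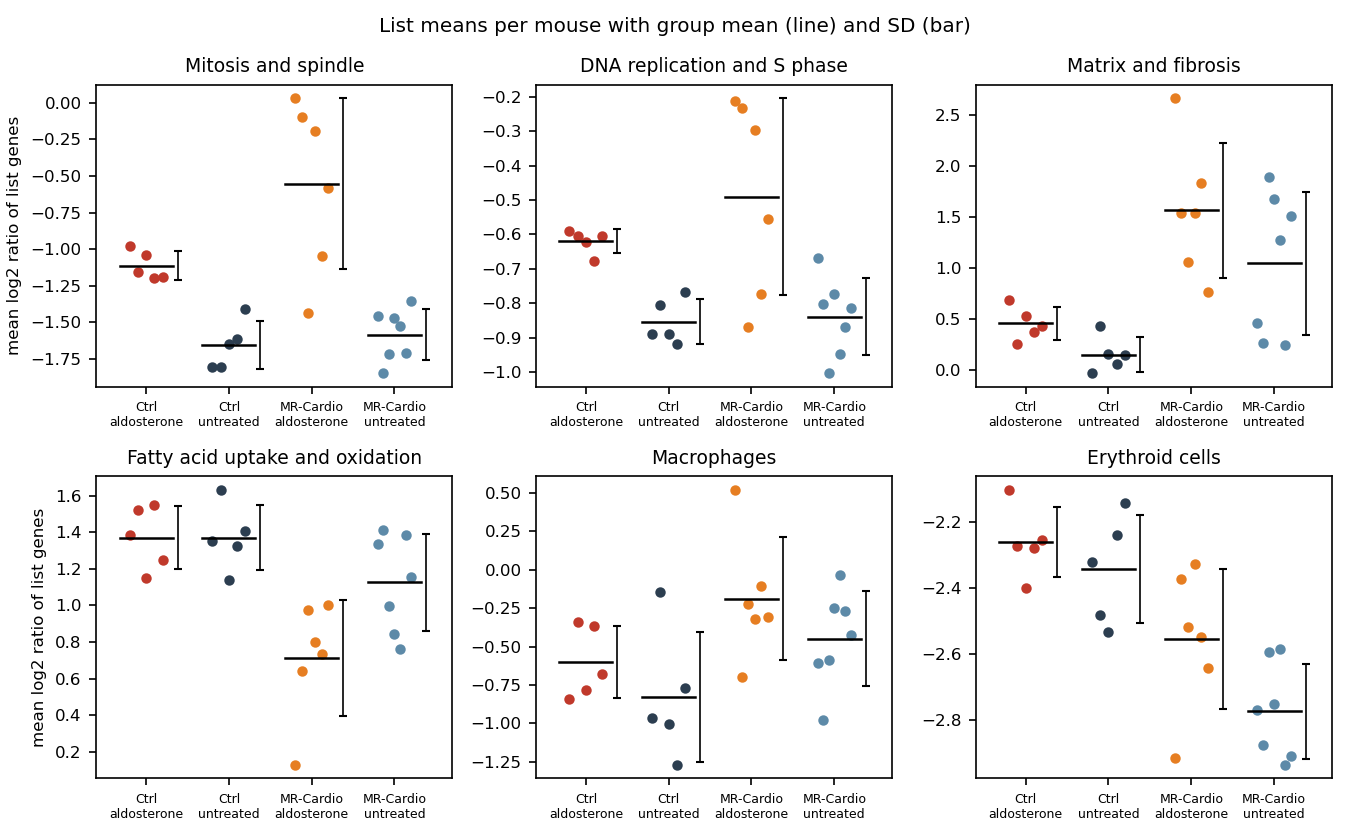
Mean log2 ratio of the measured genes of 6 lists (vertical axis) in each mouse, by group, with the group mean as a line and the SD as a bar. Mitosis means are higher in treated mice of both genotypes, with treated MR-Cardio mouse 3 at −1.44, while the matrix, macrophage and erythroid means of treated and untreated mice overlap.

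Genes that fell were fewer and their changes smaller. Osgin1, an oxidative stress-induced growth inhibitor, was the firmest. Its ratios were −2.76, −2.81, −2.78, −2.69 and −2.76 in treated controls, against −2.34, −2.41, −2.45, −2.42 and −2.48 in untreated controls, a separation of the groups with little spread. In MR-Cardio mice Osgin1 ran from −3.65 to −2.94 with a median of −3.26 under aldosterone, against −3.00 to −2.62 with a median of −2.91 untreated, with overlap by 1 treated mouse. It fell by 0.41 (SE 0.07, adjusted p = 0.00297). Pnck, a calcium and calmodulin-dependent kinase, fell by 0.51 (adjusted p = 0.0101), Fam83g by 0.41 (adjusted p = 0.0138) and Anapc10, a subunit of the anaphase-promoting complex, by 0.79 (adjusted p = 0.0165).

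Cdh4, the adhesion protein R-cadherin, had the largest fall, with a log2 difference of −1.22 (SE 0.30, adjusted p = 0.0469), made up of −1.84 in MR-Cardio and −0.41 in controls. In MR-Cardio the ratios ran from −1.96 to −0.48 with a median of −1.32 under aldosterone, against −0.95 to 2.00 with a median of 0.50 untreated, while the controls ran from 0.75 to 2.03 treated and from 1.06 to 2.14 untreated. The difference between genotypes had an unadjusted p of 0.0136 and did not pass after adjustment (adjusted p = 0.876). Cdh4 lost its call in 18 of 23 fits with a single mouse removed. Rd3l (−1.18), Ntn3 (−0.65), Lrp2bp (−0.57), Extl1 (−0.45) and Ece1 (−0.43) each lost the call in 15 to 18 of these fits. Tbx1, a T-box transcription factor, fell by 0.81 (adjusted p = 0.0290), and lost its call in 8. Pik3ip1, an inhibitor of phosphoinositide 3-kinase, fell by 0.42 (adjusted p = 0.0293), which lost its call in 5.

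In the circadian list 2 of 18 genes fell and 0 rose, with a median of −0.23. Per3, a period gene, had ratios of 1.95, 1.12, 1.29, 1.09 and 1.13 in treated controls, against 1.35, 2.28, 1.81, 1.49 and 1.69 in untreated controls, which overlap through 1 treated mouse. It fell by 0.68 (SE 0.16, adjusted p = 0.0404). Dbp, a clock-driven transcription factor, fell by 0.69 (SE 0.16, adjusted p = 0.0404). Its mean ratio was −1.26 treated against −0.28 untreated in MR-Cardio, and −0.28 against 0.04 in controls, where the groups overlapped. The median of the circadian list was −0.34 in MR-Cardio and −0.08 in controls. Per3 and Dbp lost their calls in 16 and 14 of the fits with a single mouse removed. Among other genes of the list, Ciart (−0.86, adjusted p = 0.0811), Tef (−0.38, adjusted p = 0.0589), Per2 (−0.43, adjusted p = 0.0846) and the activator Arntl (0.83, adjusted p = 0.103) did not pass. The hour at which hearts were taken is not given in the labels.

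Genes that corticosteroid receptors are known to drive showed no call. Of 31 measured target genes 0 rose and 0 fell, with a median of −0.06 and 13 of them higher. With 1.05% of all genes called, 0 calls among 31 does not set these genes apart. Fkbp5, a co-chaperone induced by steroid receptors, was measured at 0.17, 0.03, −0.02, 0.13 and −0.41 in treated controls, against −0.08, 0.13, −0.13, −0.01 and −0.16 in untreated controls. In MR-Cardio mice it ran from 2.52 to 3.89 with a median of 3.30 under aldosterone, against 2.29 to 3.72 with a median of 3.22 untreated. The treated and untreated groups overlapped in both genotypes (0.14, SE 0.17, adjusted p = 0.784). The kinase Sgk1 (−0.06), Tsc22d3 (−0.07), Per1 (−0.11) and Zbtb16 (−0.25) did not pass either.

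Lcn2, a secreted lipocalin, was 0.57 higher over both genotypes without passing (adjusted p = 0.156). It was 1.00 higher in treated MR-Cardio mice and 0.02 higher in treated controls. The MR-Cardio difference passed in the limma model fitted to mice of both genotypes (adjusted p = 0.0154). That model uses a single spread per gene for all groups. The SD of Lcn2 was 0.06 in treated and 0.11 in untreated controls, against 0.32 and 0.61 in MR-Cardio mice. When the MR-Cardio mice were fitted by themselves, no gene passed, Lcn2 included. Neither the 15 genes of receptors and the renin-angiotensin axis nor the 17 sodium transport genes held a call. At a share of 1.05% over all genes, lists of this size can hold 0 calls without standing apart. The transgene's own gene, Nr3c2, ran from 2.54 to 4.83 in treated MR-Cardio mice, against 2.49 to 4.15 in untreated MR-Cardio mice, and from 0.02 to 0.43 in treated controls, against 0.18 to 0.55 in untreated controls. All MR-Cardio mice thus lay above all controls, and the pooled treatment difference of Nr3c2 did not pass (0.33, adjusted p = 0.633).

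Matrix genes were mostly higher without passing. Of 37 genes, 33 were higher in treated mice with a median difference of 0.43, and 1 passed. That gene was Col4a1, a basement membrane collagen, measured at 1.62, 1.35, 1.56, 1.28 and 1.28 in treated controls, against 0.82, 1.09, 1.09, 1.14 and 1.06 in untreated controls. It rose by 0.50 (SE 0.12, adjusted p = 0.0484), and lost this call in 20 of the fits with a single mouse removed. Thbs1 (1.06, SE 0.32, adjusted p = 0.132), Ccn2 (1.12, SE 0.41, adjusted p = 0.232), Col1a1 (0.57, SE 0.41, adjusted p = 0.604) and Col3a1 (0.60, SE 0.39, adjusted p = 0.553) had larger differences with larger errors. The list mean in MR-Cardio ran from 0.77 to 2.66 treated and from 0.25 to 1.89 untreated, so mice of 1 group differed by more than the treatment difference.

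In the hypertrophy list 1 of 22 genes rose. It was Csrp3, the muscle LIM protein of the Z-disc, at 3.35, 3.23, 3.31, 3.33 and 3.26 in treated controls, against 2.65, 2.93, 2.89, 2.81 and 2.81 in untreated controls, without overlap. In MR-Cardio mice the groups overlapped, from 2.88 to 3.24 treated against 2.57 to 3.18 untreated. There 1 of 6 treated mice lay above every untreated mouse. Over both genotypes Csrp3 rose by 0.31 (SE 0.07, adjusted p = 0.0327), and lost this call in 12 of the fits with a single mouse removed. Nppa and Nppb, which code for natriuretic peptides, were 0.87 and 1.10 higher (adjusted p = 0.0963 and 0.186) and did not pass. The myosins Myh6 (−0.22, adjusted p = 0.551) and Myh7 (0.52, adjusted p = 0.617) did not pass. Of 24 inflammation genes and 24 immediate early genes 0 passed, with medians of 0.21 and 0.19.

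Over both genotypes, fatty acid and respiratory chain genes were mostly lower without a call. Of 27 genes of fatty acid uptake and oxidation 25 were lower, with a median of −0.24 over both genotypes, −0.01 in controls and −0.40 in MR-Cardio. In that list 13 genes were higher in controls and 1 in MR-Cardio. Of 35 respiratory chain and ATP synthase genes 34 were lower over both genotypes, with a median of −0.10. Their median was −0.05 in controls, where 15 were higher, and −0.17 in MR-Cardio, where 1 was higher. The lowest treated MR-Cardio mouse had a respiratory chain mean of 0.64, against group medians of 1.36 treated and 1.39 untreated. For the fatty acid list the lowest was 0.13, against medians of 0.77 and 1.16. Among single genes of other lists, Fkbp1b, which binds the ryanodine receptor, rose by 0.60 (adjusted p = 0.0239), the ribosomal gene Rps2 by 0.61 (adjusted p = 0.00629), and Ddit3, a transcription factor of the unfolded protein response, fell by 0.36 (adjusted p = 0.0327, a call lost in 9 such fits). Lists of glycolysis, oxidative stress and interferon response held 0 calls, and 20 of 22 interferon genes were lower with a median of −0.15. The median interferon list mean was −0.97 in treated and −0.94 in untreated controls, and −1.20 and −1.14 in MR-Cardio mice. The highest untreated mouse of each genotype stood far above its group median, at 0.09 in controls and 0.10 in MR-Cardio.

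Some genes outside these lists were picked after their values had been seen. Plat, the tissue plasminogen activator, had ratios of 0.81, 0.54, 0.50, 0.61 and 0.60 in treated controls, against −0.01, 0.14, 0.19, 0.02 and 0.16 in untreated controls, without overlap. In MR-Cardio mice Plat ran from 0.26 to 0.93 treated against −0.27 to 0.32 untreated, with 4 of 6 treated mice above every untreated mouse. It rose by 0.46 over both genotypes (SE 0.08, adjusted p = 0.00297). Spry1, a feedback inhibitor of receptor tyrosine kinase signalling, rose by 0.31 (adjusted p = 0.0304), and Etv4, an ETS factor induced by that signalling, by 0.97 (adjusted p = 0.0286). Alpl, the tissue-nonspecific alkaline phosphatase, rose by 0.78 (adjusted p = 0.00818).

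Markers of other cell types were read beside the cell cycle genes. The mean ratio of the cardiomyocyte list ran from 1.95 to 2.30 in treated controls, against 1.91 to 2.18 in untreated controls. In MR-Cardio mice it ran from 1.18 to 1.96 treated and from 1.75 to 2.14 untreated, with medians of 1.92 and 1.93. Of its 12 genes, 9 were lower over both genotypes, with a median difference of −0.09, and 1 (Csrp3) rose past the threshold. In controls 7 of the 12 were higher, against 1 in MR-Cardio. All 14 macrophage markers were higher in treated mice with a median of 0.22, and 0 passed. The mean ratio of the macrophage list ran from −0.84 to −0.34 in treated controls, against −1.27 to −0.14 in untreated controls, and from −0.70 to 0.52 in treated MR-Cardio mice, against −0.98 to −0.04 in untreated ones. All 7 platelet and megakaryocyte markers were higher with a median of 0.17, and 0 passed. The fibroblast and endothelial medians were 0.25 and 0.05 with 0 of 14 genes called in each.

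Of 11 erythroid markers, Alas2, the haem synthesis enzyme of red cell precursors, rose by 0.69 (SE 0.16, adjusted p = 0.0404), and lost this call in 17 of the fits with a single mouse removed. Its ratios were −1.99, −2.17, −2.42, −2.55 and −2.46 in treated controls, against −3.00, −3.86, −3.00, −2.90 and −2.57 in untreated controls. The erythroid factors Gata1 (0.04) and Klf1 (−0.02) and the globins Hba-a1 (−0.03) and Hbb-b1 (0.06) did not pass, and the median of the list was 0.00. Outside the list the globin-related Hba-ps4 (0.97) and Hbq1a (0.84) passed and were noticed after their values had been seen. Of the 9 adipocyte markers, Lipe, the hormone-sensitive lipase, fell by 0.47 (adjusted p = 0.0410), a call lost in 15 such fits. The part of these cell types in the cell cycle result was not tested. In whole ventricle RNA, more cells of a type and more RNA per cell cannot be told apart.

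The genes that rose lay low on the ratio scale: 83.5% had a mean log2 ratio below 0, against 48.1% of all genes, and 22.0% of those that fell. When the 25% of genes with the lowest mean ratios were left out, 16419 genes were tested and 19 passed, 15 of them higher. Only 85 of the 229 genes, and 6 of the 39 mitosis genes, remained to be tested in that setting, and 0 of these 6 passed. A low ratio is set by the spleen, liver, brain and kidney RNA of the reference as well as by the heart, and signal over background was not available here.

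Properties of the arrays were compared between treated and untreated mice within genotype. In two-sided exact permutation tests over 432432 assignments, the slope and offset of the spike-in controls differed by 0.00 (exact p = 0.975) and −0.05 log2 units (exact p = 0.617). The array median differed by 0.00 (exact p = 0.918). Between genotypes the slope did not overlap, at 0.964 to 0.982 in controls and 1.003 to 1.029 in MR-Cardio mice. For differences between the genotypes, array properties and genotype therefore cannot be told apart. An offset below −0.3 was seen in 5 arrays, 2 of 6 treated and 3 of 7 untreated MR-Cardio mice. Without them 42 genes passed, 35 higher and 7 lower, 9 of the mitosis list among them with a list median of 0.77. With the offset class as a term, 253 passed and 28 of the mitosis list rose.

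Leaving out 1 mouse at a time gave 119 to 263 calls, and 19 to 28 rises in the mitosis list. The count moved by over 1.5 times for 5 mice: it was 151 without treated control mouse 1, 138 and 119 without treated MR-Cardio mice 2 and 4, and 142 and 147 without untreated MR-Cardio mice 2 and 6. Each of the 229 genes kept its direction in every gene-level setting in which it was tested, which was all of them for 85 genes and all but the ratio filter for the others. Of 76 called genes that were followed through all settings, 44 passed in every fit with a mouse left out and 19 passed in each setting in which they were tested: Birc5, Bub1, Bub1b, Ccna2, Ccnb2, Ckap2, E2f2, Kif18b, Kntc1, Melk, Neil3, Nusap1, Pbk, Pimreg, Prc1, Rps2, Sgo1, Ska1 and Tk1. Of the 19 genes, Ckap2, Pimreg and Rps2 were the only ones still tested when the lowest 25% of ratios were left out.

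**Figure D5:**
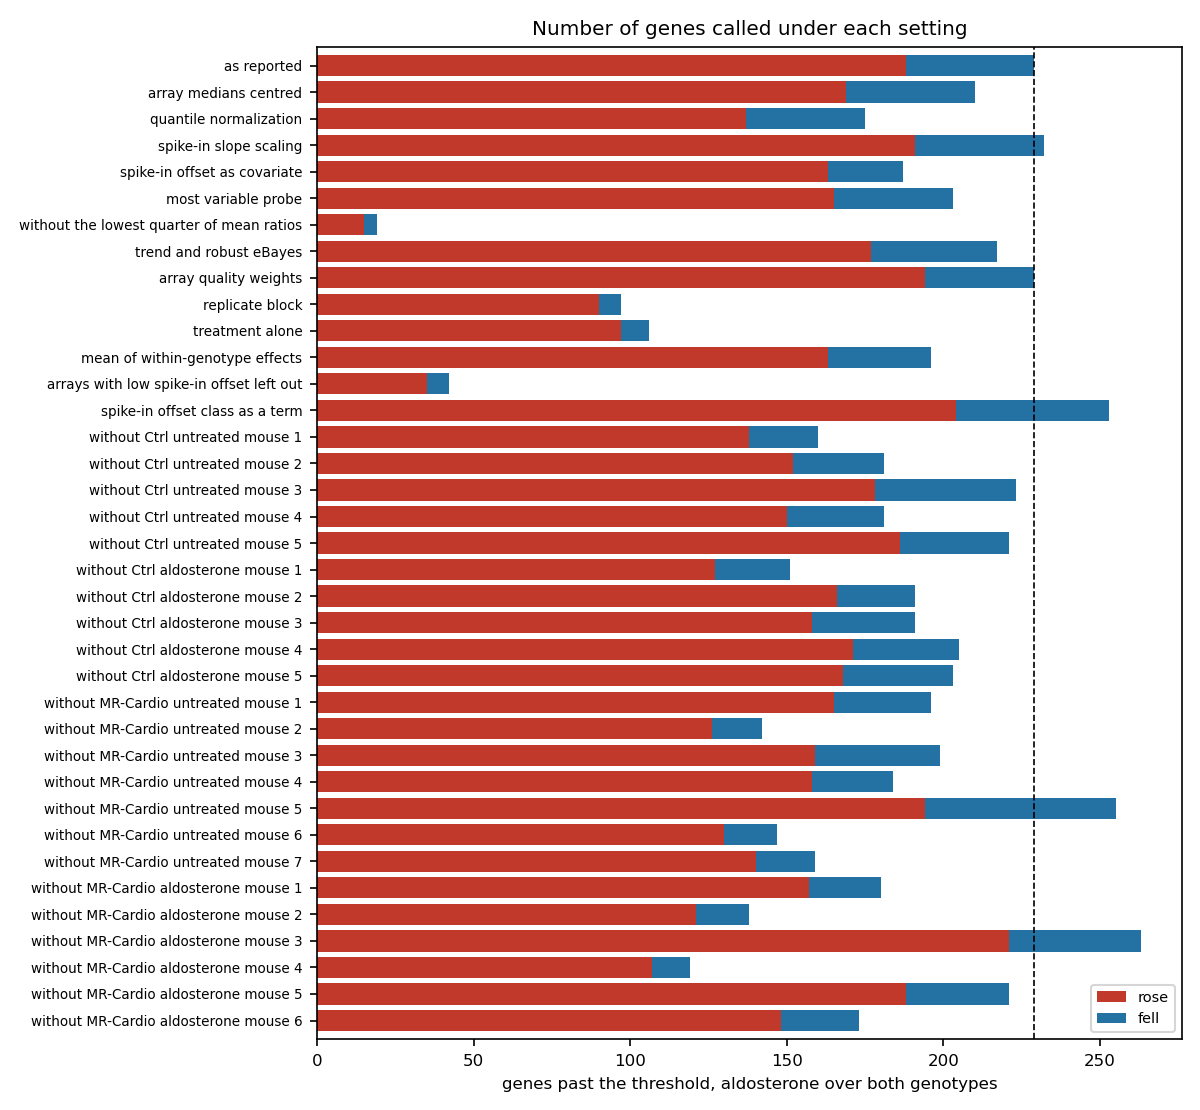
Number of genes that rose (red) and fell (blue) over both genotypes (horizontal axis) under each processing setting and with each mouse left out (vertical axis), with a dashed line at the reported 229. Counts run from 19 without the lowest 25% of ratios to 263 without treated MR-Cardio mouse 3, and genes that rose outnumber those that fell in every bar.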

How the data were processed

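Per the labels, ventricle RNA carried Cy5 and the reference pool Cy3 on 2-colour Agilent arrays, with the same dyes on all 23. The submitters' processing notes name Agilent Feature Extraction 10.7.3.1. The authors deposited, for each probe, a log2 ratio of heart against reference. Base and sign were inferred from spike-ins and from heart and brain genes. How background and dyes were corrected is not given in the sources used here.

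Of 39429 probes, 30625 had 1 gene symbol, 0 had several and 8804 were unnamed here. Averaging the probes of each gene gave 21892 genes. Array medians ran from −0.03 to 0.09 and the lowest correlation between arrays was 0.86. Depth has no counterpart on arrays, and their number limits precision.

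Genes were fitted with limma 3.58.1 (R 4.3.3, lmFit and eBayes) with genotype and treatment as additive terms, two-sided, Benjamini-Hochberg over all genes, threshold 0.05. A second fit with 1 mean per group gave the genotype differences and the interaction. Differences are treated minus untreated. The step was checked on simulated data with independent genes and 1 spread per gene in all groups. That check does not cover genes that move together or groups of unequal spread, such as Bub1b (SD 0.115 in treated controls, 0.809 in treated MR-Cardio mice). Lists (20 of pathways, 18 of cell types, 661 of 705 genes measured) are described by counts and medians. With 1.05% of all genes called, 0 calls in a list does not set it apart from all genes.

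Genes named are the 15 largest rises and falls past the threshold without clone names, called list members, examples by smallest p, 5 interaction genes, the called genes with the 5 smallest p-values each way, the markers Neil3, Melk and Ccnd1, and fixed genes of receptor action, hypertrophy and fibrosis; others were chosen after their values were seen. The comparison, its members and the lists were chosen with earlier results of these data known. The alternatives were other normalizations, probe rules, models, filters and thresholds, with each mouse left out; 2 alternatives, on the spike-in offset class, were chosen after seeing the data. The labels number mice within groups, but the same numbers recur without tying mice together: over 31 same-number pairs the correlation of deviations from group means ran from −0.156 to 0.276, with 3 over 0.1.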

Additional observations from a re-analysis of the deposited data

Results flagged for a closer look

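In 120 groups of 5 to 7 mice, taken from 26 genes and 4 list means, 5 had a mouse whose gap to its nearest neighbour exceeded Dixon's 95% limit. Chance flags about 1 in 20 groups, so this number is not above what chance gives. Per3 had such a mouse in 2 groups: treated control mouse 1 at 1.947, above the other treated controls, and untreated MR-Cardio mouse 1 at 1.132, below the others of its group. Untreated control mouse 1 stood apart for Col4a1 at 0.822, below its group, and for Ddit3 at 2.037, above its group. Untreated control mouse 3 had the lowest Nr3c2 of its group at 0.184. The 5 values are log2 ratios over the reference.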

How the results depend on the processing

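Each of the 229 genes kept its direction in every gene-level setting in which it was tested. The number of calls was 210 with array medians centred, 175 with quantile normalization, 203 with the most variable probe and 217 with trend and robust eBayes. It was 19 (15 rose, 4 fell) without the lowest 25% of ratios, where fewer genes were tested, 106 (97 and 9) with treatment alone, and 42 (35 and 7) without the 5 low-offset arrays, where fewer mice entered. With the offset as covariate 24 fell. At an adjusted p of 0.01, 72 passed (71 and 1), at 0.1, 398 (292 and 106), and with at least 0.5 log2 units, 141, of which 11 fell. The sample number as a replicate block gave 97 calls (90 and 7), with 92.8% of them rises against 82.1%; same-number mice did not deviate together, so the block pairs nothing. Left-out mice gave 119 to 263 calls in all, 107 to 221 rises, 12 to 61 falls, 0 to 1 for controls alone, 0 to 1 for the interaction and 138 to 697 for MR-Cardio alone. MR-Cardio alone gave 94 without the lowest 25%, 202 with array weights, 154 with the replicate block, 76 at 0.01 and 680 at 0.1. On the gene's strand alone, 24.4% of windows of genes that rose held a CHR and 44.5% a CCAAT box, against 10.2% and 21.5% of all windows. Uncalled genes near 0 changed sign: Nr3c1 was 0.014 with array weights, 0.0032 with the mean of within-genotype effects, 0.033 without low-offset arrays and −0.020 to 0.017 with a mouse left out, Sgk1 was 0.026 with weights and 0.022 without low-offset arrays, Tsc22d3 was 0.12 without them, and Per1 was 0.19 with the most variable probe. Ccnd1 passed in 3 settings. For changes other than those of tested genes or mice the cause was not tested. Signal over background was not available.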
